A study of Neurospora crassa with 12 samples.

Results

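Transcription of the *Neurospora crassa* genome outside its protein-coding models was examined in 4 mRNA-seq libraries, 2 of the wild type (WT) and 2 of the Si*adat2* strain. A region was counted where the deposited tables listed a transcript assembled from the reads whose locus met no locus of an annotated (NCU-numbered) transcript in the same table. Overlapping loci were merged over the 4 tables, and regions with such a transcript in all 4 libraries were kept. This left 506 regions of the 1901 found in any library, while 295 regions were found in 3 libraries, 414 in 2 and 686 in 1. The value of a region in a library is the sum of the FPKM (fragments per kilobase of transcript, scaled to the mapped fragments of the library) of its transcripts. The regions were thus chosen by measured values, the detection of a transcript in every library, so regions transcribed in only 1 strain are not among the 506. The size of the difference between strains was not used.

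Reference-guided assembly joins overlapping reads into transcripts and also reports those that fall on no known gene model. Such transcripts can be noncoding RNAs, unannotated untranslated ends of neighbouring mRNAs, precursors of structural RNAs or fragments of lowly expressed genes, and assembly from short reads without strand information does not separate these. In fungi, long noncoding RNAs between and opposite to genes are a common part of the transcriptome, and many are short-lived or lowly expressed.

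WT was strain 87-3, which carries *bd* and mating type *a*. Si*adat2* was made in strain 301-6 (*bd*, mating type *A*, *his-3*) by integrating an inverted repeat of *adat2* at *his-3*, which the *qa-2* promoter transcribes into double-stranded RNA when quinic acid (QA) is present. *adat2* (NCU01888) encodes the predicted catalytic subunit of the enzyme that converts adenosine to inosine at the wobble position of tRNAs. Mycelia of both strains were grown from conidia in Vogel's medium with 0.1% glucose and 0.01 M QA, 3 days in plates and 1 day with shaking in constant light, and no cycloheximide was added. Because both strains received QA but differ in mating type, in the history of the *his-3* locus and in the construct, strain and silencing cannot be told apart in any comparison here. The labels only number the replicates, which the study describes as independent biological ones.

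The 4 tables listed between 4669 and 5366 assembled transcripts each, of which 2193 to 2707 lay outside annotated loci. Coverage per FPKM, which is constant within a library and tracks its depth, ranged from 7.30 in WT replicate 2 to 11.1 in WT replicate 1, but the absolute depth is unknown because the tables hold no read counts. *adat2* is listed at 0 FPKM in all 4 libraries, as are *matA-1*, *matA-2* and *matA-3*, and a listed 0 can be a failed estimate, so these genes check no label. *his-3* stood at 38.7 and 38.3 FPKM in WT against 289 and 230 in Si*adat2*. Of the 6 conidiation markers, *con-6*, *con-8*, *con-10* and *fl* were higher in Si*adat2*, *ccg-1* was lower and *eas* (7859 and 7608 FPKM in WT) has no value in Si*adat2*. The 5 of them with a value in every library summed to 24095 and 21875 FPKM in WT against 10500.5 and 14179 in Si*adat2*, and *ccg-1* made up most of each sum. Of the 4 genes used as markers of every cell, *tef-1* and *pma-1* were higher, *act* was lower and the tubulin gene *Bml* was not past the threshold. The part of these differences in the results on regions was not tested, and in bulk mycelium fewer cells of a kind and less RNA per cell cannot be told apart.

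The name of these regions holds only relative to the annotation in the tables. All 9729 protein-coding genes of the RefSeq annotation of assembly NC12 are listed in the tables, but none of its 176 ncRNA, 399 tRNA or 77 rRNA genes on chromosomes I to VII is. By coordinates of NC12, 443 of the 506 regions (87.5%) overlapped no RefSeq gene of any kind. The other 63 overlapped 1 or more RefSeq genes, which were ncRNA genes in 46 regions, tRNA genes in 12 and rRNA genes in 5. None overlapped a protein-coding gene. Together they met 48 of the 176 RefSeq ncRNA genes (27.3%).

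The transcripts of the regions were shorter than annotated ones, were less often spliced and lay in wide gaps between genes. The median region covered 1826 bases (259 to 9087), and its 5338 transcripts over the 4 libraries had a median length of 1070 bases, against 1986 for annotated transcripts. A transcript is called spliced here when it is shorter than its locus, which held for 33.1% of the transcripts of the regions and 83.2% of the annotated ones. Assembled transcripts were counted in each library, while annotated ones were counted once, with lengths and introns given by the annotation. A spliced transcript was found in all 4 libraries for 190 regions and in none for 128. The median distance to the nearest annotated locus was 558.5 bases, with 235 regions under 500 bases away and 9 regions at least 5000 bases away. The gap between the annotated loci on either side had a median of 5633 bases, of which the region took a median of 36.7%. All gaps between neighbouring annotated loci had a median of 781 bases, but a gap must be wide enough to hold a region. Region ends were not sharp, since the start of a region varied over the 4 libraries by a median of 243 bases and its end by 247 bases. In 1816 of the 2024 combinations of region and library (89.7%), transcripts assigned to different assembled genes overlapped each other, and in 1015 (50.1%) a spliced transcript overlapped an unspliced one, so reads can be shared within the summed value.

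Regions were spread over all 7 chromosomes, from 2.77 per 100 annotated genes on chromosome VII to 7.49 on chromosome II. The 5 longest regions were assembled as many partial transcripts, 20 to 27 over the 4 libraries, with a spliced one in every library. The longest lay between *pdx-3* and NCU03070 (chromosome I, 4422885 to 4431971 of NC12), with 8.26 and 3.88 FPKM in WT against 9.29 and 2.13 in Si*adat2*. Its first base varied by 5008 bases between libraries. The others lay between NCU03520 and NCU03518, between *tah-3* and NCU03689, between NCU04177 and *sah-1*, and between NCU10006 and *acu-9*, the malate synthase gene. None of the 5 was past the threshold between strains, with adjusted p from 0.204 to 0.773 (limma).

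Most regions were transcribed at a low level. The mean FPKM over the 4 libraries had a median of 2.80 for the regions (0.437 to 498) and of 12.04 for annotated genes. A region sums transcripts that may cover different parts of it, so its value can exceed a level per base of the region. Between NCU08489 and NCU08487, the WT libraries had 33.1 and 50.0 FPKM summed. They had 5.61 and 7.70 with FPKM times transcript length divided by the length of the region. A mean of at least 1 FPKM was reached by 473 regions (93.5%) and a mean of at least 10 by 57 (11.3%), against 78.1% and 53.9% of annotated genes. The rule works against low regions, since it needs a transcript in every library. Genes are listed even at 0, and 8741 of the 9658 had a mean above 0. The shares at 1 FPKM are therefore not a like comparison. All regions together held between 0.50% and 0.83% of the summed FPKM of a library, and the 10 highest regions of a library held 33.8 to 46.2% of that amount.

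**Figure D1:**
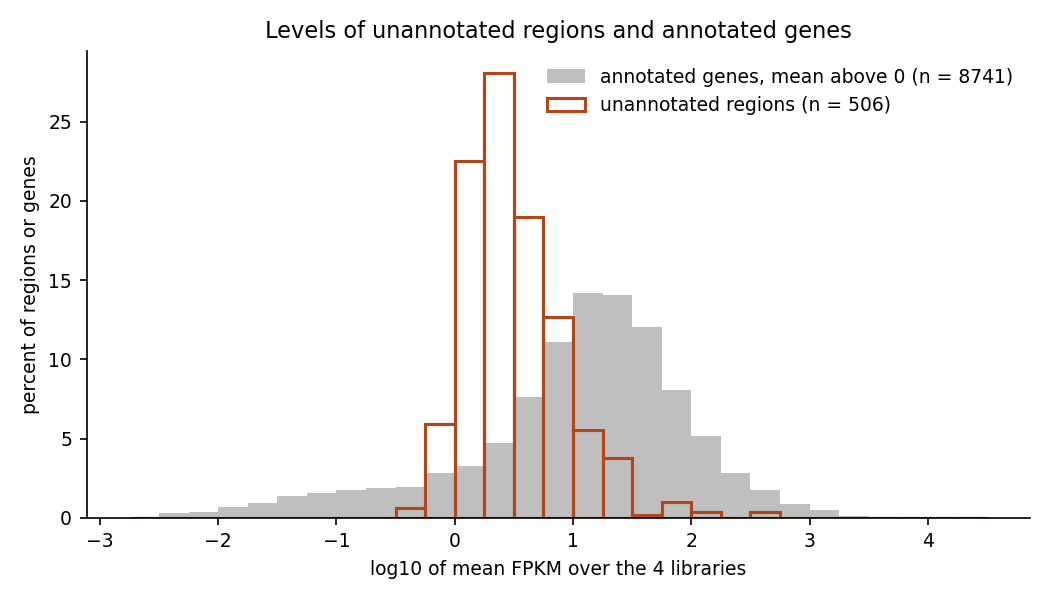
Distribution of log10 mean FPKM over the 4 libraries for the 506 regions (outlined bars, percent of regions) and for the 8741 annotated genes with a mean above 0 (grey bars, percent of genes). The regions gather around their median of 2.80 FPKM, below the bulk of the genes, and few reach 10 FPKM. The rule needs a transcript in every library and so works against low regions, while genes met no such rule.

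Among the 10 regions with the highest mean, 3 lay over RefSeq ncRNA genes and 6 held transcripts under 300 bases. The region between NCU05557 and NCU05556 (chromosome VI, 1527248 to 1529314), which holds the RefSeq ncRNA gene NCU14174, had 266 and 282 FPKM in WT against 580 and 459 in Si*adat2*. It was spliced in all 4 libraries, and both Si*adat2* libraries lay above both WT libraries, with a log2 fold change of 0.91 (SE 0.15, adjusted p = 0.0154, limma). The region between NCU03597 and NCU03599 (chromosome V, 1796527 to 1798577), over the ncRNA gene NCU14067, went the other way, with 135 and 142 FPKM in WT against 68.0 and 88.8 in Si*adat2*. Its log2 fold change was -0.83 (SE 0.16, adjusted p = 0.0230, limma). A spliced region over the ncRNA gene NCU14131, between NCU05437 and NCU05448 (chromosome II, 1633811 to 1635081), had 47.5 and 66.9 FPKM in WT against 120 and 159 in Si*adat2*. The log2 fold change there was 1.29 (SE 0.25, adjusted p = 0.0227, limma), while the neighbour NCU05448, 381 bases away, was at 13.3 and 10.4 FPKM in WT and is listed at 0 in both Si*adat2* libraries. All 3 calls were lost without either WT library, with adjusted p of 0.133 and 0.121 over NCU14174, 0.130 and 0.151 over NCU14067, and 0.110 and 0.0729 over NCU14131 (limma).

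The remaining regions among the 10 highest had no RefSeq ncRNA, and most varied within a strain. The highest mean of all, 498 FPKM, belonged to the region between NCU09339 and NCU09342 (chromosome II, 4167909 to 4168459), with 18.4 and 882 FPKM in WT against 614 and 477 in Si*adat2*. The WT libraries differed there by far more than the strains did, and the adjusted p was 0.457. WT replicate 1 carried only transcripts of 427 and 550 bases in this place, while WT replicate 2 and Si*adat2* replicate 1 carried transcripts of 180 to 203 bases. Si*adat2* replicate 2 carried one of 182 bases at 473 FPKM and one of 425 bases at 4.06 FPKM. The region between NCU09046 and NCU17167 (chromosome VII, 440764 to 443517) had 11.5 and 13.5 FPKM in WT against 24.5 and 520 in Si*adat2*. A single 194-base transcript gave 506 of the 520 FPKM of Si*adat2* replicate 2, and the adjusted p was 0.200. In the region between NCU01783 and NCU01782 (chromosome II, 2454417 to 2454756), 7 of 8 transcripts were under 300 bases. Its levels of 50.7 and 44.5 FPKM in WT against 90.0 and 110 in Si*adat2* did not overlap, with a log2 fold change of 1.07 (SE 0.14, adjusted p = 0.0102, limma). The regions between NCU04689 and NCU04690 (83.3 and 42.1 FPKM in WT, 54.3 and 93.3 in Si*adat2*), between NCU00292 and NCU00293 (50.2 and 85.5, then 24.4 and 81.1) and between NCU08489 and NCU08487 over an rRNA gene (33.1 and 50.0, then 6.89 and 46.0) overlapped between strains.

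**Figure D2:**
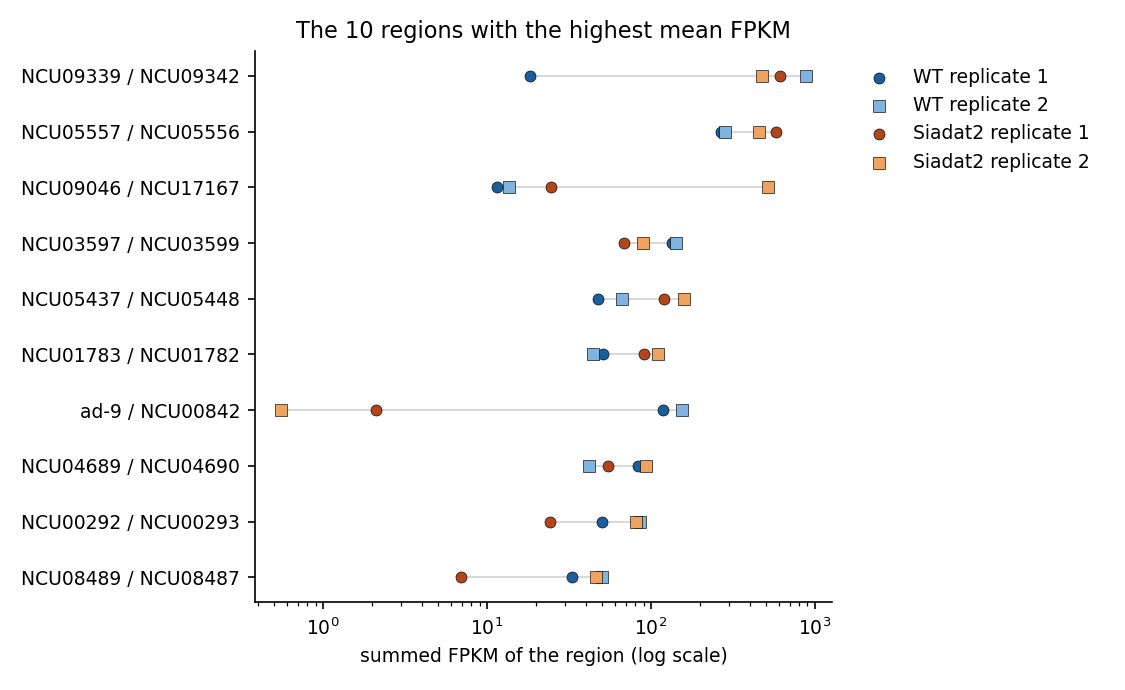
Summed FPKM (log axis) of the 10 regions with the highest mean, 1 row per region named by its annotated neighbours; circles are replicate 1 and squares replicate 2, blue WT and orange Si*adat2*, and the grey line spans the 4 libraries. WT replicate 1 at 18.4 FPKM in the top row, Si*adat2* replicate 2 at 520 in the third and both Si*adat2* libraries at 2.09 or below beside *ad-9* stand far from the rest.

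The tables give confidence bounds for each FPKM, and short transcripts often exceeded their own upper bound. Among transcripts of the regions under 300 bases, 44 of 98 (44.9%) had an FPKM above that bound, up to 53.5 times. The share was 13.5% for transcripts of 300 to under 1000 bases and 3.68% for those of 1000 bases or more, where the largest excess was 1.27 times. Among annotated transcripts above 0 it was 26.8%. In total 51 regions held a transcript under 300 bases. An FPKM above its bound is a property of the deposited estimate, so the levels of all regions were also computed from the midpoints of the bounds. On that scale, with genes kept at their summed FPKM, 63 regions passed the threshold of the strain comparison, 39 higher and 24 lower in Si*adat2*. The share of all features passing in that fit is not given here. With the summed FPKM, 78 regions and 46.1% of all features tested passed.

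**Figure D3:**
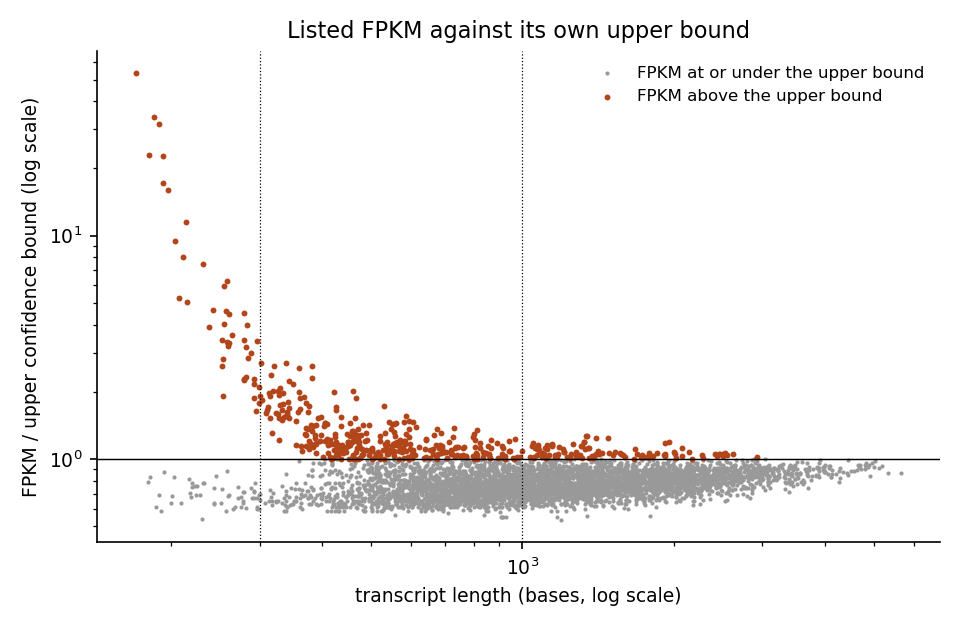
FPKM divided by its deposited upper confidence bound (log axis) against length in bases (log axis) for those of the 5338 transcripts of the regions with an FPKM above 0. Points above the bound are red, and dotted lines mark 300 and 1000 bases. The excess reaches 53.5 times under 300 bases and 1.27 times at 1000 bases or more.

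Regions were less reproducible than genes. Across the 506 regions, Pearson's r of log2 FPKM was 0.80 between the WT libraries and 0.79 between the Si*adat2* libraries, and 0.68 to 0.69 between libraries of different strains. These values describe points that share their libraries and assembly. The median absolute log2 ratio between replicates was 0.43 in WT and 0.51 in Si*adat2* for regions, against 0.07 and 0.22 for the 7547 genes with a mean of at least 1. The same held among features with a mean of at least 1 FPKM and a geometric mean of FPKM + 0.1 below 10. Their median residual SD on the log2 scale was 0.41 for regions and 0.19 for genes.

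Between strains, 78 of the 473 regions tested passed the threshold, 47 of them higher and 31 lower in Si*adat2*. The test was limma on log2(FPKM + 0.1), a scale that understates changes of low features, over genes and regions with a mean of at least 1 FPKM, with Benjamini-Hochberg adjustment over all 8020 and a threshold of 0.05. The share was 16.5% for regions, against 46.1% of all features tested, and in the directions 9.94% and 6.55% against 19.8% higher and 26.3% lower. Before adjustment 111 regions had p under 0.05. By the ratio of strain means, 89 of the 506 regions were above 2 (17.6%, against 15.3% of all features) and 54 were below 0.5 (10.7%, against 12.6%), with no test. Both Si*adat2* libraries lay above both WT libraries in 142 regions (28.1%, against 31.9%) and below both in 110 (21.7%, against 41.8%). The median log2 ratio of strain means was 0.10 for regions and -0.11 for genes. Without WT replicate 1 or without WT replicate 2, most of the 78 calls were lost. The share of all features that passed in these fits is not given here, so the loss is not read as particular to regions. Estimating the spread of regions apart from that of genes left 39 regions where 46% of all features passed. Testing every region with no filter on low values left 36, with no such share given.

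**Figure D4:**
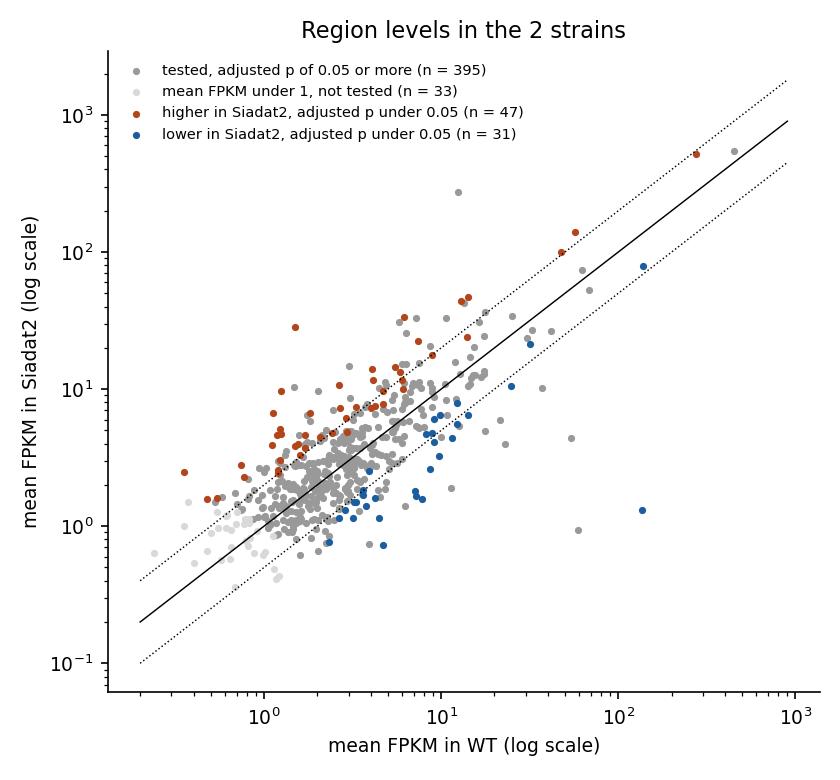
Mean FPKM of each of the 506 regions in WT (x, log axis) and Si*adat2* (y, log axis), with equality as a solid line and 2-fold differences as dotted lines. The 47 higher (red) and 31 lower (blue) regions passed the threshold, while the region between NCU09046 and NCU17167, at 12.5 FPKM in WT and 272 in Si*adat2*, did not.

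The largest rise past the threshold was in the region between NCU02959 and NCU02957 (chromosome I, 8578236 to 8580926). It had 1.39 and 1.62 FPKM in WT against 21.6 and 35.4 in Si*adat2*, was spliced in all 4 libraries and overlaps the tRNA gene NCU15059. The mean was 19.0-fold higher in Si*adat2* (log2 fold change 4.12, SE 0.29, adjusted p = 0.00273, limma). Its neighbour NCU02959, 423 bases away, rose from 30.3 and 30.3 FPKM to 41.8 and 41.8, a log2 fold change of 0.46. The region between NCU04034 and NCU04035 (chromosome VI, 2517752 to 2518911) was spliced in all libraries and had 5.90 and 6.52 FPKM in WT against 28.6 and 38.1 in Si*adat2* (log2 fold change 2.39, SE 0.18, adjusted p = 0.00304, limma). Here NCU04035, 492 bases away, moved the other way, with 22.8 and 21.9 FPKM in WT against 16.6 and 15.2 in Si*adat2*. Of the 29 regions past the threshold that are named here, these alone kept their calls in every alternative fitted for them, 16 for the first and 17 for the second. Without WT replicate 1 the calls of 26 of the 29 were lost and without WT replicate 2 those of 24.

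In the region between NCU00017 and NCU00018, the gene of the segregase Cdc48 (chromosome III, 2299769 to 2302843), levels were 2.16 and 3.17 FPKM in WT against 10.4 and 10.9 in Si*adat2* (log2 fold change 1.99). Both neighbours were called, in opposite directions, with log2 fold changes of 1.01 for NCU00017 and -0.70 for NCU00018. The region between NCU01791 and NCU16557 (chromosome II, 2407594 to 2410705), over the ncRNA gene NCU14137, had 1.75 and 1.86 FPKM in WT against 6.66 and 6.63 in Si*adat2* (log2 fold change 1.82, SE 0.14, adjusted p = 0.00328, limma). NCU01791, 2000 bases away, fell by 0.79 on the log2 scale. Between NCU09759 and NCU09758 (chromosome II, 4326584 to 4329810) levels were 1.24 and 1.25 FPKM in WT against 5.01 and 4.47 in Si*adat2*. NCU09758, 1011 bases away, was also higher, with a log2 fold change of 2.40. The nearer NCU09759, 716 bases away, was not past the threshold, with a log2 fold change of 0.13.

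The other 5 of the 10 largest rises had log2 fold changes of 1.85 to 2.81 with adjusted p from 0.0111 to 0.0444, and in each both Si*adat2* libraries were above both WT libraries. They lay between NCU05278 and NCU05277 (0.944 and 1.54 FPKM in WT, 6.23 and 13.1 in Si*adat2*), between NCU01410 and NCU01411 (0.312 and 0.393, then 1.88 and 3.05), between NCU02894 and NCU02890 (1.28 and 0.951, then 8.32 and 5.04), between NCU05370 and NCU05373 (1.37 and 1.10, then 3.84 and 6.31) and between NCU03617 and NCU03618 (0.863 and 1.51, then 3.19 and 6.06). The second and the fourth overlap the tRNA genes NCU15115 and NCU15262. All stood at 0.312 to 1.54 FPKM in WT. The region between NCU01410 and NCU01411, with a WT mean of 0.352, passed the filter of 1 FPKM only through Si*adat2*. Among the 78 called regions, 5 higher and 2 lower ones had a mean under 1 FPKM in 1 strain. The call between NCU03617 and NCU03618 (adjusted p = 0.0444, limma) was lost in 11 of 16 alternatives. Neighbours of these 5 regions moved in both directions. NCU05278, 498 bases from the first, had a log2 fold change of 0.55, and NCU01411, 110 bases from the second, one of 1.08. NCU05277, 2303 bases from the first, had 2.72 and 3.05 FPKM in WT and is listed at 0 in Si*adat2*. NCU03617, 502 bases from the last, fell by 1.61 on the log2 scale. The nearest genes of the third and the fourth, NCU02894 and NCU05373, were not past the threshold.

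**Figure D5:**
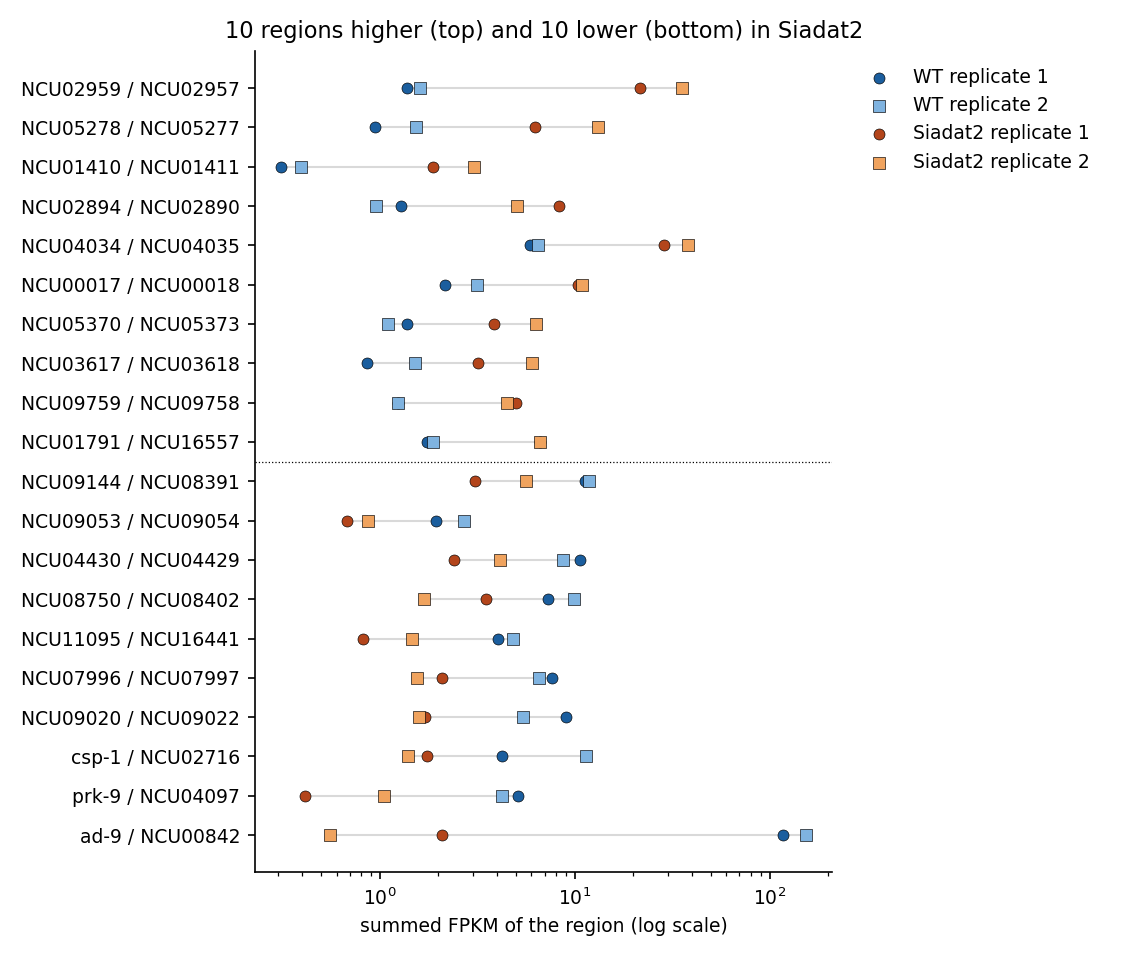
Summed FPKM (log axis) of the 10 regions with the largest rise (above the dotted line) and the 10 with the largest fall (below it) in Si*adat2* among those past the threshold; circles are replicate 1 and squares replicate 2, blue WT and orange Si*adat2*. In all 20 rows the WT and Si*adat2* libraries do not overlap, as in all 78 regions past the threshold.

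The largest fall past the threshold was beside *ad-9*, a gene of adenine synthesis. The region between *ad-9* and NCU00842 (chromosome I, 6986086 to 6986919) had 118 and 154 FPKM in WT against 2.09 and 0.555 in Si*adat2* (log2 fold change -6.82, SE 0.67, adjusted p = 0.00504, limma). The WT values came from transcripts of 191 to 214 bases. The 154 FPKM of WT replicate 2 exceeded its upper bound of 6.76, and in WT replicate 1 a transcript at 92.9 FPKM had an upper bound of 8.09. With the midpoint of the bounds the levels were 32.5 and 4.88 in WT against 1.71 and 0.544 in Si*adat2*, and the call was lost (log2 fold change -3.56, adjusted p = 0.0785, limma). It was also lost without WT replicate 1 (0.0540) and without WT replicate 2 (0.0623), and the adjusted p over its alternatives ranged from 0.00199 to 0.0785. *ad-9* itself, 202 bases away, had 29.1 and 28.8 FPKM in WT against 35.2 and 37.0 in Si*adat2*.

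The other regions with large falls were low. Between *prk-9* and NCU04097 (chromosome V, 4816135 to 4817064) levels were 5.10 and 4.26 FPKM in WT against 0.412 and 1.05 in Si*adat2* (log2 fold change -2.63, SE 0.48, adjusted p = 0.0211, limma). With a Si*adat2* mean of 0.732, this region passed the filter of 1 FPKM only through WT. NCU04097, annotated as an ABC transporter, had 37.7 and 33.2 FPKM in WT against 81.0 and 108 in Si*adat2*. Between *csp-1*, which encodes a transcription factor of conidial separation and the clock, and NCU02716 (chromosome I, 3292419 to 3293224), levels were 4.24 and 11.4 FPKM in WT against 1.74 and 1.40 in Si*adat2*. There the log2 fold change was -2.09 with an adjusted p of 0.0498 (limma), and 11 of 17 alternatives lost the call. A region spliced in every library between NCU09020 and NCU09022 (chromosome VII, 356534 to 357402) had 9.01 and 5.46 FPKM in WT against 1.71 and 1.59 in Si*adat2*. With the midpoint of the bounds these became 2.63 and 1.51 in WT against 1.60 and 1.46 in Si*adat2*, and the log2 fold change went from -2.03 (adjusted p = 0.0130) to -0.36 (adjusted p = 0.443, limma).

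Between NCU07996 and NCU07997 (chromosome IV, 3846931 to 3849307) levels were 7.68 and 6.52 FPKM in WT against 2.08 and 1.55 in Si*adat2* (log2 fold change -1.92). With FPKM times transcript length divided by the length of the region the log2 fold change was -0.26 (adjusted p = 0.481, limma). NCU07996, a gene of an F-box and WD-repeat protein 388 bases away, had a log2 fold change of 1.43 and NCU07997 one of -0.81. The remaining 5 of the 10 largest falls had log2 fold changes of -1.92 to -1.45 and adjusted p from 0.0209 to 0.0415. For the one between NCU11095 and NCU16441 the log2 fold change was -0.80 with the midpoint of the bounds. In 2 of them the nearest gene fell as well. NCU04430, 189 bases from a region with 10.7 and 8.70 FPKM in WT against 2.41 and 4.12 in Si*adat2*, had 196 and 205 FPKM in WT against 39.9 and 36.8 in Si*adat2*. NCU09054, 377 bases from a region with 1.94 and 2.71 FPKM in WT against 0.676 and 0.866 in Si*adat2*, had 3.69 and 3.90 FPKM in WT against 0.100 and 0.134 in Si*adat2*. The region beside NCU09054, with a Si*adat2* mean of 0.771, passed the filter of 1 FPKM only through WT.

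Regions over RefSeq ncRNA genes changed in both directions. Of the 46 regions over ncRNA genes, all tested, 8 were higher and 3 lower in Si*adat2*, a share of 23.9% called against 16.5% of all regions and 46.1% of all features tested, and the median of their mean levels was 5.05 FPKM. Beyond those named above, the higher ones included the 259-base region over NCU14009, which lies 577 bases from *matA-1* and had 11.4 and 17.1 FPKM in WT against 42.8 and 51.1 in Si*adat2*. Its transcripts are all under 300 bases, a length at which FPKM often exceeded its upper bound, and 4 of 16 alternatives lost the call. The strains differ in mating type, and the sequence of this locus was not examined in either. The lower ones included the region over NCU14163 and NCU14164, with 12.6 and 15.9 FPKM in WT against 6.11 and 6.86 in Si*adat2*, and the one over NCU14106, between NCU05723 and NCU05726, with 9.91 and 14.6 and then 4.90 and 6.23. The log2 fold change over NCU14106 was -1.11 (adjusted p = 0.0376, limma), but 0.052 with FPKM weighted by transcript length and 0.27 with FPKM times length over the length of the region. Of the 12 regions over tRNA genes, 4 were higher and 0 lower (limma), where 19.8% of all features were higher and 26.3% lower, with 5 at p under 0.05 before adjustment. The one that adjustment removed, between NCU01208 and NCU01209, had 3.16 and 3.84 FPKM in WT against 2.11 and 2.10 in Si*adat2* (adjusted p = 0.0515, limma). Of the 4 higher regions, the one between NCU01410 and NCU01411 (WT mean 0.352) passed the filter of 1 FPKM only through Si*adat2*. The higher region not yet named, between *ada-6* and NCU04867 over NCU15140, had 15.3 and 10.5 FPKM in WT against 30.9 and 57.4 in Si*adat2*, and its neighbour NCU04867 had a log2 fold change of 2.97. The tRNA genes themselves are much shorter than these regions, which had a median length of 1923.5 bases, and the tables do not say which part of a region the reads covered. Of the 5 regions over rRNA genes, 1 was higher and 1 lower. Among the 443 regions over no RefSeq gene, 34 were higher and 27 lower of 410 tested (14.9%, against 46.1% of all features).

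By distance from genes, of the regions under 500 bases from an annotated locus 40 of 220 tested passed (18.2%), and of those farther away 38 of 253 (15.0%). Both shares were near the 16.5% of all regions and below the 46.1% of all features tested. Across the 343 regions whose nearest gene was also tested, Pearson's r of the log2 fold changes was 0.15, with 0.21 for the 153 regions under 500 bases away and 0.06 for the 190 farther away, against 0.04 across 6218 pairs of neighbouring genes. These are descriptions across loci that share the same 4 libraries. Of the 33 higher regions with a tested nearest gene, that gene was higher in 13 and lower in 5. Of the 26 lower ones, it was lower in 7 and higher in 3. Of all 7547 genes tested, 20.4% were higher and 27.6% lower.

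Of the loci that the construct and the inducer concern, the region nearest to *his-3*, between NCU03136 and NCU03137 and 6505 bases from it, had 1.22 and 2.18 FPKM in WT against 0.727 and 2.69 in Si*adat2*, with an adjusted p of 0.848. The region nearest to the *qa* gene cluster, which encodes the enzymes of QA use and their regulators, lay 47385 bases away between NCU06045 and NCU06043 (chromosome VII, 1991425 to 1993303). It was spliced in every library and had 2.04 and 1.37 FPKM in WT against 4.29 and 4.98 in Si*adat2* (log2 fold change 1.41, SE 0.27, adjusted p = 0.0222, limma), while NCU06043 was at 273 and 281 FPKM in WT against 293 and 295 in Si*adat2*. This call was lost when any 1 of the 4 libraries was left out and with no filter on low values, with adjusted p up to 0.101 (limma).

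The rule has a threshold, detection in all 4 libraries, and the regions just inside it were barely detected. The 5 with the lowest level in any library were down to 0.163 to 0.265 FPKM there, led by the region between NCU11290 and NCU08777 with 0.163 and 0.315 FPKM in WT against 1.00 and 0.267 in Si*adat2*. Just outside it, the 5 with the highest mean among those found in 3 libraries had means of 42.4 to 407 FPKM over those libraries, and 3 of them overlap RefSeq ncRNA genes. The highest, between NCU05498 and NCU12104 over NCU14176, had 659 FPKM in WT replicate 2 and 311 and 251 in Si*adat2*, with no transcript outside annotated loci in WT replicate 1.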

How the data were processed

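Total RNA of mycelia was extracted with Trizol, treated with DNase and made into Illumina TruSeq libraries, and the submitters' processing notes name TopHat2 and Cufflinks without versions. Per the file headers, the authors deposited FPKM with confidence bounds and the coverage signal (mean read depth per base) of each annotated and assembled transcript, on assembly NC12, with no strand. Only these 4 of the 12 libraries of the series were used, grouped by their labels.

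FPKM of transcripts was summed per region and per gene, for the 9658 genes with a value in every table. Features with a mean of at least 1 FPKM were tested with limma 3.58.1 in R 4.3.3 on log2(FPKM + 0.1) with a trend of the variance, without a replicate block. On data simulated for this comparison (8020 features) it recovered 143 of 200 4-fold changes (71.5%) and called 9 unchanged features. Most simulated features were genes, whose median residual SD was 0.14 against 0.41 for regions, so this share does not describe regions. The simulation also changed a far smaller share of features than the 46.1% called in the data. Tables were handled in Python 3.11.15 (numpy 2.4.6, pandas 2.3.3) and plotted with matplotlib 3.10.9.

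Regions were named by rule: the 10 highest means, the 10 largest rises and falls past the threshold, the 5 longest, the 5 just inside and outside the rule, and those nearest to *his-3* and the *qa* cluster, with their neighbours. Regions over NCU14009, NCU14163, NCU14106, NCU15140 and NCU15105 were chosen after their values were seen. Members and lists were chosen with earlier results of these data known. Alternatives for the pseudocount, filter, scaling, region value, libraries and distance were fixed in advance, and those for the confidence bounds, the length of the region, transcripts under 300 bases, regions over no RefSeq gene and the spread were chosen after seeing the data.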

Additional observations from a re-analysis of the deposited data

How the results depend on the processing

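The count of 78 regions past the threshold (47 higher, 31 lower) became 36 (23 and 13) with no filter on low values, 40 (25 and 15) with a mean of at least 5 FPKM, where 136 regions were tested, 42 (27 and 15) among regions at least 500 bases from annotated loci, where 253 were tested, 48 (36 and 12) with FPKM weighted by transcript length and 39 (25 and 14) with the spread of regions estimated apart. Leaving out single libraries gave 9 to 87 regions, 4 to 60 higher and 3 to 38 lower, with the lone library of a strain assumed to vary like the other strain. The other alternatives gave 54 to 91. Of all features tested, 46.1% passed in the main fit and 46% with the spread estimated apart. That share is not given for the other settings, so their counts are not compared with genes. By the ratio of means, leaving out single libraries gave 77 to 101 regions above 2 and 38 to 96 below 0.5, regions at least 500 bases away gave 50 and 23, and FPKM times length over the length of the region gave 34 below 0.5. Requiring a transcript in 3 of the 4 libraries would give 801 regions, and a distance of at least 500 bases leaves 271.

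Of the 472 values refitted for the 29 named regions past the threshold, 128 lost the call and 2 changed direction, both between NCU05723 and NCU05726 over NCU14106, to 0.052 with FPKM weighted by transcript length and to 0.27 with FPKM times length over the length of the region. Regions not past the threshold gained a call between NCU09046 and NCU17167 without either Si*adat2* library (adjusted p = 0.0082 and 0.0473), between NCU09339 and NCU09342 without WT replicate 2 (0.0163) and between NCU08489 and NCU08487 without Si*adat2* replicate 2 (0.0434, limma). Log2 fold changes not past the threshold turned to -0.70 for the region between NCU09339 and NCU09342 without WT replicate 1, to -0.23 and -0.13 between NCU04689 and NCU04690 without WT replicate 2 and without Si*adat2* replicate 2, to 0.31 and 0.16 between NCU00292 and NCU00293 without Si*adat2* replicate 1 and with the midpoint of the bounds, and to 0.18 between NCU08489 and NCU08487 without Si*adat2* replicate 1. Leaving out each library in turn, these log2 fold changes ranged from -0.70 to 4.87, from -0.23 to 0.76, from -1.42 to 0.31 and from -2.55 to 0.18. The cause was not tested. With no filter the median log2 fold change of genes moved from -0.13 to -0.002. The replicate number as a block gave 58 regions (35 and 23), 46 of them among the 78. Deviations of same-numbered libraries correlated at 0.01 over the 473 regions, and with 2 pairs and no statement in the labels the numbers were not taken to pair the libraries.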

Other observations

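Regions assembled in only 1 strain fall outside the 506. There were 105 with a transcript in both WT libraries and in neither Si*adat2* library, with a median of 1.79 FPKM, and 139 with the reverse pattern, with a median of 1.31 FPKM. A missing transcript is not a level of 0, so no fold is given. The highest found in Si*adat2* alone lay between NCU07834 and *pan-3* (chromosome III, 1028408 to 1028795 of NC12), with 196 and 364 FPKM, and between NCU17113 and NCU03970 (chromosome VI, 2280254 to 2282222), with 34.96 and 49.1 FPKM. Next came a region 994 bases from NCU06864 and 5482 bases from the histone H1 gene *hH1* (14.5 and 19.3 FPKM). After it came a region beside *nik-2*, a histidine kinase gene (10.5 and 16.9 FPKM).

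The highest mean among those found in WT alone was that of the region between NCU06881 and NCU06882 (chromosome VII, 644081 to 644464), with 62.1 FPKM in WT replicate 1 but 2.42 in WT replicate 2. A 223-base region between NCU00860 and NCU00859 (chromosome I, 6934029 to 6934251), made of transcripts under 300 bases, had 34.7 and 19.4 FPKM. Another, over the RefSeq ncRNA gene NCU14153 beside the histone H2A gene *hH2A*, had 13.5 and 25.5 FPKM, while one over the ncRNA gene NCU14089 had 16.7 and 9.29 FPKM. Of these regions, 7 of the 105 and 5 of the 139 overlapped a RefSeq ncRNA gene.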
